A study of Mus musculus with 2 samples.

Results

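In mouse hippocampus, 163 protein-coding genes whose 5' ends lie in DNA poor in CpG had an accessible site close to that end in both DNase-seq libraries. They were chosen by measured peak calls and by reference sequence, among the GENCODE M21 protein-coding genes of chromosomes 1 to 19. The ratio of observed to expected CpG dinucleotides had to be below 0.2 in the window reaching 500 bp to either side of the gene record's 5' end on mm10. A peak of the larger deposited peak list of each library also had to lie within 500 bp of that end. Genes with another protein-coding gene's transcript start within 1000 bp were left out, which kept 17866 of 20807 genes. Of these, 4566 were CpG-poor, and 163 of the 4566 (3.57%, Wilson 95% interval 3.07 to 4.15%) had a peak in both libraries. The peak calls thus chose the members, and everything that follows from having a peak is a description with no test. The labels call the tissue layer of hippocampus and give female B6CASTF1/J mice, an F1 hybrid strain, aged 8 to 10 months, and they name no further allele or treatment. There was 1 group with 2 libraries, biological replicates 1 and 2, each made from a pool of 2 biosamples, and no control arm. Both carry the same donor label, and the labels do not say that the pools came from different animals, so the spread between the libraries may be technical.

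CpG dinucleotides are lost from mammalian genomes by mutation of methylated cytosine, except in CpG islands, which mostly stay unmethylated and hold the promoters of most housekeeping genes. Promoters without an island tend to belong to genes used in few cell types, and are commonly methylated where the gene is silent. DNase I cuts DNA where it is accessible, many cuts together are called as a peak, and a short stretch of few cuts inside a peak, a footprint, can mark DNA shielded by a bound protein.

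The sequences that recur in the results are those under footprints seen in both libraries. They are reference sequence (RefSeq GRCm38.p6, the mm10 assembly), read 5' to 3' on the gene's strand from 120 bases before the 5' end to base 10 of the gene, with capitals on the bases that a footprint covered in both libraries. The first set holds members in which such a footprint lay on the class II X-box core CTAGCAAC or on the related repeat GGCAAC: H2-Eb1 at chr17:34305747-34305876 (plus strand), H2-Ob at chr17:34238783-34238912 (plus strand), 4933407L21Rik at chr1:85928363-85928492 (plus strand) and Btbd17 at chr11:114795936-114796065 (minus strand). H2-Ob, and Samd9l and C1rl further on, were picked for printing after their values were seen.
H2-Eb1: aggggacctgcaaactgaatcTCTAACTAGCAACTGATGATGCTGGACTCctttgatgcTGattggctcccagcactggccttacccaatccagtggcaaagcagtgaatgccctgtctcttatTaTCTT
H2-Ob: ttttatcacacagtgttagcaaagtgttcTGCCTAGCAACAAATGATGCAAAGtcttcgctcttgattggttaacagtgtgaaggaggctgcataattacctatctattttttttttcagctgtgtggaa
4933407L21Rik: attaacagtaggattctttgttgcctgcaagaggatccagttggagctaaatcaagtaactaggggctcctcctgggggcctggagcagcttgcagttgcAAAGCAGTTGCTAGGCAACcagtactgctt
Btbd17: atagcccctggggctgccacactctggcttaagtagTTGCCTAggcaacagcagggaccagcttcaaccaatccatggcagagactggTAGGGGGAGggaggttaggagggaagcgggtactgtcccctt
The second set shows footprints on AGGNGGC, part of the consensus bound by the chromatin factor CTCF: Hsd3b7 at chr7:127800484-127800613 (plus strand), Samd9l at chr6:3399563-3399692 (minus strand) and C1rl at chr6:124492993-124493122 (plus strand).
Hsd3b7: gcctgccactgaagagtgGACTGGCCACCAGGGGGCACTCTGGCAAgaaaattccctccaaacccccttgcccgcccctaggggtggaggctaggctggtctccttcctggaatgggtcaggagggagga
Samd9l: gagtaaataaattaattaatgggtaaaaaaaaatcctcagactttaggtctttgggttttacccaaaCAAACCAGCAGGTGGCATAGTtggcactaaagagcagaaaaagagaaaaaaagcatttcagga
C1rl: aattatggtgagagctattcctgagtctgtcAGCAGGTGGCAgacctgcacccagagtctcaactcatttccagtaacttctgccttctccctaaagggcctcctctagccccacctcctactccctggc
The third set shows the neighbouring Cyp4f genes and the myelin genes Mog and Mag, which the cell type lists turn on: Cyp4f16 at chr17:32536438-32536567 (plus strand), Cyp4f15 at chr17:32685507-32685636 (plus strand), Cyp4f14 at chr17:32917333-32917462 (minus strand), Mog at chr17:37023389-37023518 (minus strand) and Mag at chr7:30914864-30914993 (minus strand).
Cyp4f16: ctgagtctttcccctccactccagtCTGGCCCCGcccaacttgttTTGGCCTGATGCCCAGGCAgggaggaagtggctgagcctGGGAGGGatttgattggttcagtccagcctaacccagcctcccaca
Cyp4f15: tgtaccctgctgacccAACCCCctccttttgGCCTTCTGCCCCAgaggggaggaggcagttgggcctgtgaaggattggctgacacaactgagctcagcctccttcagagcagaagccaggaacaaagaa
Cyp4f14: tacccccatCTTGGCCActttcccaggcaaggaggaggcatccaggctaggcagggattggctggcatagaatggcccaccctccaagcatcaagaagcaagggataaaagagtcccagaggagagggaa
Mog: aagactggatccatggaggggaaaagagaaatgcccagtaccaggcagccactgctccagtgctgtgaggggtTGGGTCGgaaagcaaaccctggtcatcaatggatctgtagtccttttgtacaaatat
Mag: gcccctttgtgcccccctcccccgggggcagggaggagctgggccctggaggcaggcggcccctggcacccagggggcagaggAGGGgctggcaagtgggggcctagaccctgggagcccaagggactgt
The last set holds members with a TATA box, and here alone the capitals mark that box, spelled TATAAA. These promoters are Agt at chr8:124569697-124569826 (minus strand), Crybb1 at chr5:112255695-112255824 (plus strand) and Ecm1 at chr3:95739560-95739689 (minus strand).
Agt: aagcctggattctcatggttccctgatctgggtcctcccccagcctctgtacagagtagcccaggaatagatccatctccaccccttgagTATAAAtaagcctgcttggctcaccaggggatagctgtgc
Crybb1: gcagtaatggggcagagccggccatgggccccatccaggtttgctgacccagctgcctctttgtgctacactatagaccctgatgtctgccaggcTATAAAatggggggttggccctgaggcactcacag
Ecm1: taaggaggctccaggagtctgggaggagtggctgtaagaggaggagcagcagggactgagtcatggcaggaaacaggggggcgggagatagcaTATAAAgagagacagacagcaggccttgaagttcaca

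CpG-poor 5' ends were rarely open. The share was 3.57% among CpG-poor genes, against 65% among eligible genes with a ratio of 0.2 or more (8640 of 13300) and 49.3% over all eligible genes. Within the CpG-poor range it was 1.00% (5 of 498 genes) at ratios below 0.05, 2.11% (24 of 1139) from 0.05 to 0.1, 3.63% (56 of 1541) from 0.1 to 0.15 and 5.62% (78 of 1388) from 0.15 to 0.2. It was 9.60% just above the threshold, at 0.2 to 0.25, with no break at the threshold. Without the 1342 chemosensory receptor genes, of which 6 were members, the share was 4.87% (157 of 3224). In the smaller, stricter peak lists, 87 members had a peak in both libraries, 1.91% of the CpG-poor genes, against 43.3% of all eligible genes. A further 129 CpG-poor genes had a peak in 1 library alone, 45 in replicate 1 and 84 in replicate 2, and 4274 had none. Of those 4274, 5 held a base with a listed false discovery rate in both libraries.

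**Figure D1:**
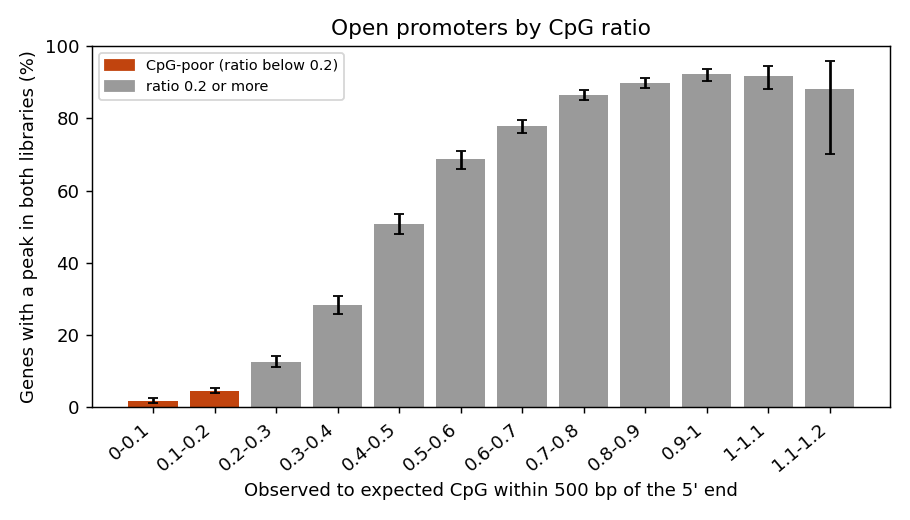
Share of eligible protein-coding genes with a peak within 500 bp of the 5' end in both libraries (%), by observed to expected CpG ratio, with Wilson 95% intervals as bars. The share was 1.77% in the lowest class, 4.57% from 0.1 to 0.2 and 92.1% from 0.9 to 1.

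The threshold separated genes of similar signal, the deposited peak height, taken for each gene from its highest peak within 500 bp. Just inside it, Mlc1 (ratio 0.1999), a membrane protein of astrocyte end-feet, had signals of 1.06 in replicate 1 and 0.954 in replicate 2. Agmo (0.199), an alkylglycerol monooxygenase, had 0.533 and 0.620, and Dthd1 (0.198) had 0.533 and 0.644. Just outside it, Ddo (0.201), the D-aspartate oxidase, had 1.33 and 1.14, the apolipoprotein gene Apod (0.201) had 0.763 and 0.660, and the complement gene C4b (0.202) had 0.503 and 0.509. The ranges on both sides overlapped.

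Most members were CpG-poor at the peak as well as at the 5' end. Centred on the peak's midpoint, 136 of 163 kept a ratio below 0.2 in replicate 1 and 140 in replicate 2, and 4 reached 0.4 in each. The members' windows held a median of 8 CpG, against 5 in CpG-poor genes with no peak and 72 in open genes with a ratio of 0.6 or more (6524 genes, called CpG-rich here). Their median GC content was 49.9%, against 43.3% in closed CpG-poor genes. The window of 4931408C20Rik held no CpG at all and had signals of 0.382 and 0.437. Repeats covered more than 50% of the 300 bases around the 5' end in 8 members, among them Sra1 and Tdo2, against 292 of the 4274 closed genes.

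Not every member's site was at an annotated protein-coding start. A peak covered the 5' end in both libraries in 62 members (38.0%), against 4597 of 6524 CpG-rich open genes (70.5%), and 123 members kept a peak within 250 bp. Btbd17 had its highest peak centred 594.5 bp downstream in replicate 1 and 614.5 bp in replicate 2, with a further peak over the 5' end. In 20 members no protein-coding transcript of the gene started within 50 bp of the record's 5' end, against 873 of all 17866 eligible genes. In 15 members, among them H2-Eb1 and Pik3ip1, another start of the same gene, over 1000 bp away, had a ratio of 0.6 or more (9.20%), near the 7.13% of all eligible genes, and 13 of those starts were open in both libraries. Over all eligible genes, 886 of 1274 such starts were open in both libraries. Of 124 members found by symbol in the RefSeq promoter table, 74 had a RefSeq start within 50 bp and 100 within 500 bp.

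**Figure D2:**
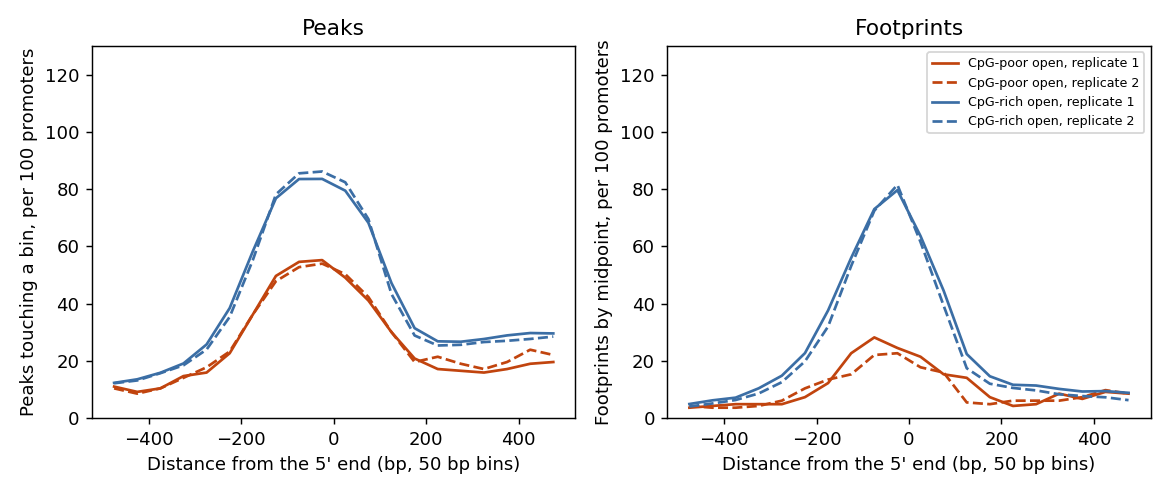
Peaks touching each 50 bp bin (left) and footprints with their midpoint in it (right), per 100 promoters, by distance from the 5' end in bp, for the 163 CpG-poor open genes and the 6524 CpG-rich open genes in each library. In the bin just before the 5' end a peak stood at 55.2 and 54.0 per 100 members, against 83.6 and 86.2 per 100 CpG-rich genes.

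Signal at the members was lower than at other open promoters and a little above that of the typical peak. Their median was 0.715 in replicate 1 and 0.747 in replicate 2, against 2.33 and 2.76 at CpG-rich open genes, 1.20 and 1.39 at open genes with a ratio of 0.2 to 0.6, and 0.5998 and 0.580 over all peaks of each library. Members had to have a peak in both libraries and took their highest one, which did not apply to all peaks. With a peak required only in replicate 1 the median was 0.609, and with one required only in replicate 2 it was 0.596. Member values spanned 0.176 to 3.75 in replicate 1 and 0.167 to 4.80 in replicate 2. The signal rose in fixed steps, and the median member peak held 118 steps in replicate 1 and 94 in replicate 2, so low members rest on few steps. Both libraries ranked the members much alike, with a Spearman correlation of 0.894 across the 163 genes, which share the libraries, and 161 of 163 were within 2-fold. At CpG-rich open genes the correlation was 0.976, and 6488 of 6524 were within 2-fold.

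The 12 highest members have varied roles. Btbd17 had signals of 3.75 in replicate 1 and 4.80 in replicate 2 (mean 4.28 ± 0.744, SD, n = 2), the highest in both libraries. Ddn, which encodes dendrin, a protein of the postsynaptic density, had 3.16 and 3.04. Pipox, a peroxisomal oxidase that breaks down sarcosine and pipecolate, had 2.83 and 2.50. Pik3ip1, a membrane inhibitor of PI3 kinase, had 2.60 and 2.57. On mm10 the 5' end of Ddn is at base 98809490 of chromosome 15, that of Pipox at base 77894096 of chromosome 11 and that of Pik3ip1 at base 3330401 of chromosome 11. The MHC class II beta chain gene H2-Eb1 had 1.76 and 3.49, the only one of these 5 whose libraries differed by nearly 2-fold. Cmtm5, a MARVEL-domain membrane protein, had 2.44 and 2.35, Sra1, the steroid receptor RNA activator, 2.33 and 2.31, and the pentose phosphate enzyme transketolase, Tkt, 2.49 and 2.15. The record's 5' end of Tkt had no protein-coding transcript within 50 bp. The Sra1 peaks lay 415 and 395 bp from the 5' end, at ratios of 0.593 and 0.590 around the peak, and so not in CpG-poor DNA. Those of Ddn lay 330 and 350 bp away, at a ratio of 0.113 in both libraries. Those of Pik3ip1 lay 180 and 200 bp away, at 0.277 in both. 4933407L21Rik had 1.93 and 2.43, Lgi4, a secreted protein of Schwann cell myelination, 1.90 and 2.09, Hsd3b7, a steroid dehydrogenase of bile acid synthesis, 1.87 and 2.10, and Lix1 1.95 and 1.99. All 12 were above the median of all peaks in both libraries. They were chosen by highest mean signal, so this is no result about the genes.

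The 5 lowest members were near the floor of what was called. The inflammatory caspase gene Casp12 had 0.212 in replicate 1 and 0.167 in replicate 2, the defensin gene Defb50 0.188 and 0.246, and the hair keratin-associated gene Krtap13-1 0.1999 and 0.246. Tmem273 had 0.224 and 0.223, and Vwa5a 0.176 and 0.302. None of these 5 had a peak in the smaller list of either library.

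A few members differed between the libraries. C1s1, a serine protease of the complement pathway, had 0.803 in replicate 2 and 0.315 in replicate 1, a log2 ratio of 1.35, D630023F18Rik had 0.803 and 0.3999 (1.01), and H2-Eb1 had 3.49 and 1.76 (0.99). At the other end, the lysosomal macrophage protein gene Cd68 had 0.843 in replicate 2 and 1.41 in replicate 1 (-0.74), St18, a zinc finger factor, 0.437 and 0.697 (-0.67), and Mog, myelin oligodendrocyte glycoprotein, 0.891 and 1.39 (-0.64). The median over all members was 0.12, and 97 of 163 were higher in replicate 2. At CpG-rich open genes the median was 0.17, and 4739 of 6524 were higher in replicate 2. H2-Ob, the class II gene nearest to H2-Eb1 among the members, had 0.739 in replicate 2 and 0.382 in replicate 1 (0.95). With 1 value per library no test of these differences was possible.

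**Figure D3:**
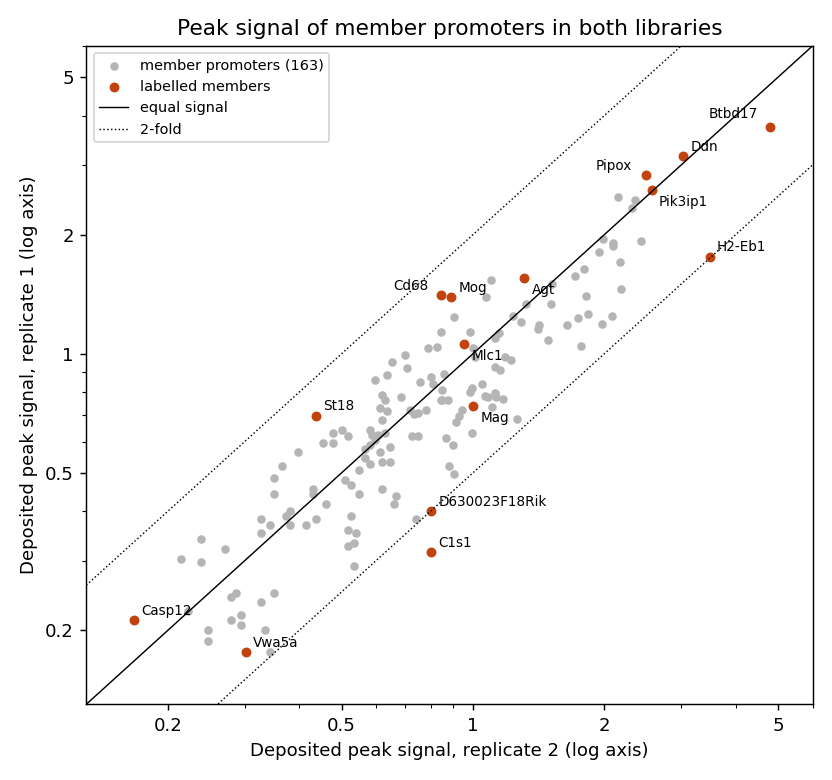
Deposited peak signal of the 163 members, replicate 2 on the x axis and replicate 1 on the y axis, both on log axes; the solid line is equality and the dotted lines are 2-fold. Members lie along the line, with C1s1 and D630023F18Rik beyond 2-fold towards replicate 2.

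Most CpG-poor genes of the astrocyte and oligodendrocyte lists were open. In the astrocyte list, 7 of the 8 CpG-poor genes were members (87.5%, 52.9 to 97.8%), against 3.57% of all CpG-poor genes. In the oligodendrocyte and myelin list it was 4 of 5 (80%, 37.6 to 96.4%), and Sox10, the lineage's transcription factor, had a peak in 1 library. The lists were chosen with earlier results of these data known and no list was tested. In a bulk tissue, a site open in fewer cells and a site cut less often per cell cannot be told apart.

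Among the astrocyte genes, Agt, which encodes angiotensinogen, had 1.56 in replicate 1 and 1.31 in replicate 2. The cytochrome P450 gene Cyp4f15 had 1.24 and 0.906, Itih3, an inter-alpha-trypsin inhibitor heavy chain, 1.04 and 1.00, and Mlc1 the values given above. S100b, a calcium-binding protein long used as an astrocyte marker, had 1.04 and 0.827, Slco1c1, a thyroid hormone transporter, 0.679 and 0.620, and Cyp4f14 0.388 and 0.525. Phkg1, a phosphorylase kinase subunit, was the CpG-poor gene of the list without a peak. Of the list's 26 eligible genes with a ratio of 0.2 or more, 19 were open.

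Among the oligodendrocyte genes, Mog had 1.39 in replicate 1 and 0.891 in replicate 2. Mag, myelin-associated glycoprotein, had 0.739 and 1.00, and Hapln2, a link protein of the matrix at nodes of Ranvier, 0.848 and 0.755. Peaks covered the 5' ends of Mog, Mag and Hapln2 in both libraries. The record's 5' end of Hapln2 had no protein-coding transcript within 50 bp, and another of its starts had a ratio of 0.74.

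In the microglia and macrophage list 14 of 37 eligible genes were CpG-poor. Of the 14, Cd68 alone was a member (7.14%, 1.27 to 31.5%), an interval that holds the 3.57% of all CpG-poor genes. Fcrls, Cd53 and C1qc had a peak in 1 library, and 10, among them Csf1r, Spi1 and Tyrobp, had none, against 4274 of all 4566 CpG-poor genes. Of the list's 23 other genes 4 were open. In the endothelial and mural list 0 of 7 CpG-poor genes were open (upper bound 35.4%, which also holds 3.57%), and 3 of 21 others.

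The neuronal list had almost no CpG-poor genes to draw on. Its only one, Rbfox3, had a peak in 1 library, while 35 of its 43 eligible genes of higher ratio were open. The immediate early list had no CpG-poor gene, and 16 of its 17 eligible genes were open. Members with neuronal roles lay outside these lists and were picked after their values were seen. They include Chrm1, the M1 muscarinic acetylcholine receptor (1.57 in replicate 1 and 1.72 in replicate 2), Rin1, a Ras effector of forebrain neurons (1.81 and 1.94), Htr3a, a serotonin receptor subunit (0.782 and 1.07), and Oprl1, the nociceptin receptor (0.909 and 1.15). Of 6 CpG-poor neuropeptide genes, Npff alone was a member (1.21 and 1.29), with its highest peak centred upstream of the 5' end, at -359.5 and -348.5 bp. That 5' end had no protein-coding transcript of Npff within 50 bp.

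Lists of other tissues and gene families mostly lay near the 3.57% of all CpG-poor genes, with chemosensory receptors below it and S100 genes above it. No CpG-poor gene was open among 8 liver and plasma, 5 muscle, 13 digestive, 6 erythroid, 15 lymphocyte and granulocyte, 2 germline, 3 choroid plexus and ependyma, 15 killer lectin-like and 22 zinc finger genes, with Wilson upper bounds from 14.9% for the zinc finger to 65.8% for the germline list, all of them above 3.57%. Among chemosensory receptors, 6 of 1342 were members (0.447%, 0.205 to 0.972%), led by Olfr1414 (0.776 and 0.684), Olfr1260 (0.497 and 0.906), Olfr536 (0.509 and 0.549) and Olfr958 (0.351 and 0.541). The record's 5' end of Olfr1260 had no protein-coding transcript within 50 bp. Keratins gave 1 of 38 (2.63%, Krtap13-1), and protease inhibitors and kallikreins 2 of 70 (2.86%), Serpina3n (0.612 and 0.867), a serpin of reactive astrocytes, and Spink13 (0.703 and 0.732). S100 genes gave 2 of 9 (22.2%, 6.32 to 54.7%), S100b and S100a16 (0.860 and 0.596). Of 16 potassium channel and glutamate or GABA receptor symbols 2 were members, the potassium channel Kcnk16 (0.776 and 1.13) and Grifin (0.891 and 0.859), a lens galectin relative caught only by its symbol.

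**Figure D4:**
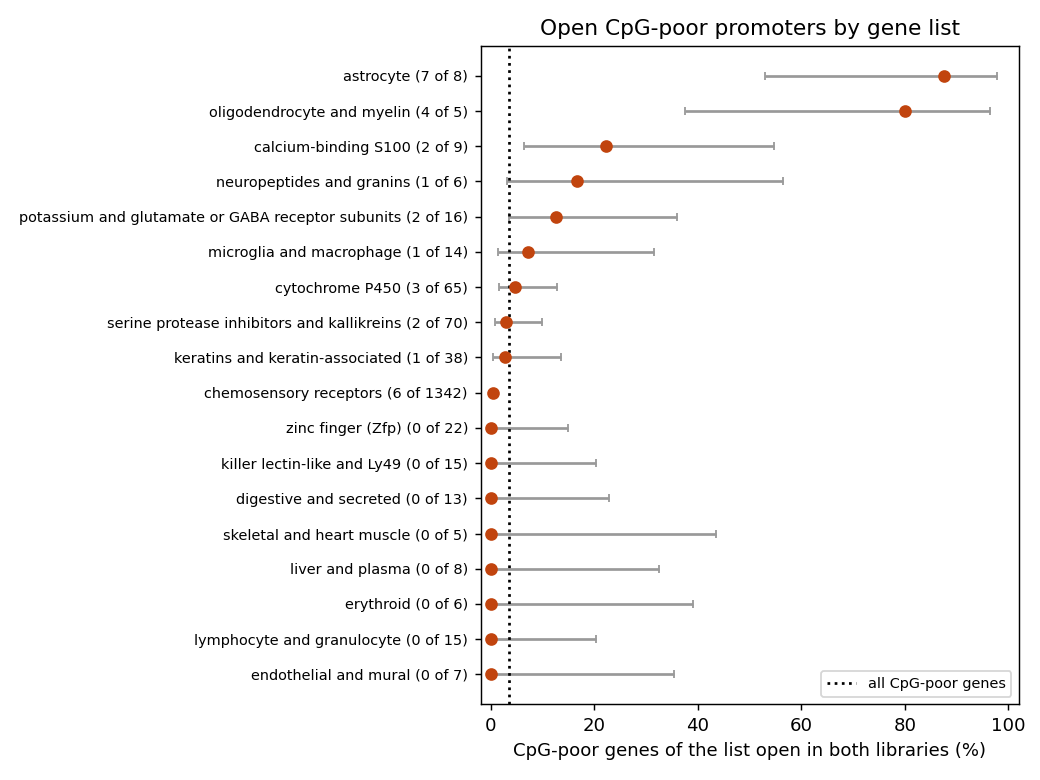
Share of each list's CpG-poor genes that were open in both libraries (%), with Wilson 95% intervals as bars, for lists with at least 5 such genes; the dotted line is 3.57%, the share over all CpG-poor genes. The astrocyte and oligodendrocyte lists stand at 87.5% and 80%.

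Defining markers of the hippocampal cell types were open in part. At the gene's 5' end, 4 of 7 were open in both libraries for neurons, 1 of 5 for interneurons, 4 of 5 for astrocytes and 3 of 5 for oligodendrocytes. Over all eligible genes the share was 49.3%, and the neuronal and oligodendrocyte counts are near it. It was 0 of 7 for microglia, 0 of 2 for precursors, 1 of 6 for endothelium and mural cells, 1 of 3 for choroid plexus and ependyma and 0 of 2 for blood. Replicate 1 had 98902 peaks and 244447 footprints, and replicate 2 had 130199 and 251726.

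Some members were neighbours. On chromosome 17 lay Cyp4f16 (1.33 in replicate 1 and 1.51 in replicate 2), Cyp4f15 and Cyp4f14, with 5' ends 149069 and 231715 bp apart in that order, the 3 members among 65 CpG-poor cytochrome P450 genes (4.62%, near the 3.57% of all CpG-poor genes). Of these, Cyp4f15 and Cyp4f14 are also in the astrocyte list. The 300-base promoter windows of the 3 genes shared no 12-base word, with longest common runs of 9, 9 and 10 bases. Exact runs miss looser likeness, which was not tested. All 3 printed sequences hold ATTGG on the gene's strand, beginning 24, 46 and 64 bases before the 5' end. None of these matches has a base in capitals. On either strand the word is common, in 32.5% of the 300-base windows of members and 38.5% of those of all eligible genes. H2-Ob and H2-Eb1 were 66964 bp apart, Cd68 and Tnfsf13, a TNF-family ligand, 19631 bp, the chemokine genes Ccl2 and Ccl11 22252 bp, and the C1r-like and C1s protease genes C1rl and C1s1 49246 bp. Rnase2b and Ear14, eosinophil-type ribonuclease genes 41131 bp apart, shared a 21-base run. The treatment of reads that fit several places is not given by any source used here, and their part in these values was not tested. Chromosome 11 held 26 members, the highest count of any chromosome and 8.50% of its 306 CpG-poor genes, against 3.57% over all; chromosome 18 held 5 of 58 (8.62%).

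Footprints were not used to choose the members. A footprint lay in the peak parts within 500 bp in 126 members in replicate 1 (77.3%, 70.3 to 83.1%) and 138 in replicate 2 (84.7%, 78.3 to 89.4%), against 98.1% and 97.8% of CpG-rich open genes. A footprint that overlapped one of the other library was found in 88 members (54.0%, 46.3 to 61.5%), against 90.6% (89.9 to 91.3%). The peaks of either library covered 44133 bases within 500 bp in the 163 members, against 2646958 in the 6524 CpG-rich genes. The length searched per gene was thus shorter in members. Per kb of peak, members had 10.3 footprints in replicate 1 and 8.79 in replicate 2, against 14.98 and 14.01.

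The share of promoters with a footprint rose with peak signal, in members and in CpG-rich open genes. The length of peak searched was not matched within the signal classes that follow. Where the mean signal was below 0.5, 3 of 42 members had a shared footprint (7.14%), against 16.2% of CpG-rich genes in that class. From 0.5 to 1 it was 40 of 74 (54.1%), against 60.4%, from 1 to 2 it was 36 of 38 (94.7%), against 92.8%, and from 2 upwards 9 of 9, against 99.3%. For the shared footprint, the intervals of members and CpG-rich genes overlapped in all 4 classes. For any footprint in replicate 1 they did not overlap in the lower classes, with 47.6% of members (33.4 to 62.3%), against 71.9% (65.0 to 77.9%), below 0.5 and 81.1% (70.7 to 88.4%), against 93.6% (91.7 to 95.1%), from 0.5 to 1. In replicate 2 they overlapped in every class, with 64.3% of members, against 67.0%, below 0.5 and 87.8%, against 92.6%, from 0.5 to 1. The members with the most footprints were Btbd17 (7 in replicate 1 and 8 in replicate 2), Chrm1 (9 and 4), 4933407L21Rik (5 and 7) and Agt (7 and 4). Mfap4, a microfibril protein gene picked after its values were seen, had signals of 1.71 and 2.17 and no footprint counted in either library. Its peaks lay 471 and 491 bp from the 5' end, so only their edges within 500 bp were searched for footprints.

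**Figure D5:**
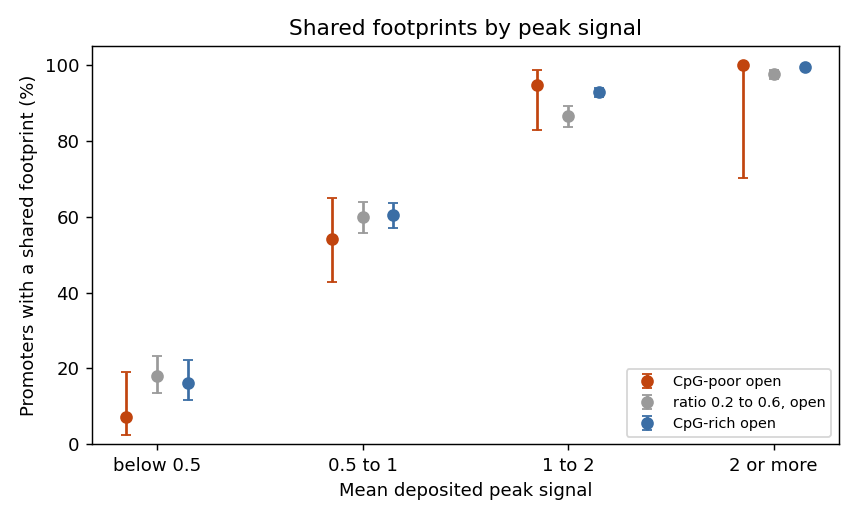
Share of open promoters with a footprint shared by both libraries (%), by mean deposited peak signal, with Wilson 95% intervals as bars. In each class the interval of the CpG-poor genes overlaps that of the CpG-rich genes.

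The X-box core lay under shared footprints in 3 members. CTAGCAAC, on either strand, was in the 300-base window (250 bases before to base 50) of 6 members (3.68%, 1.70 to 7.80%), against 2.18% of closed CpG-poor, 1.46% of CpG-rich open and 1.52% of all eligible genes. It occurred 5 times in member peaks, and 3 of the 5, those of H2-Eb1, H2-Ob and 4933407L21Rik, lay in footprints of both libraries, against 23 of 112 in CpG-rich peaks (20.5%). In H2-Eb1 the core began 94 bases before the 5' end and in H2-Ob 88, and an ATTGG, the CCAAT box read on the other strand, began 59 and 55 bases before it. No base of either ATTGG lay under a footprint of both libraries. In MHC class II promoters an X box and a Y box, which contains that CCAAT box, bind RFX and NF-Y. In 4933407L21Rik the core overlapped GGCAAC within the footprint from 20 to 2 bases before the 5' end, and the Btbd17 footprint from 84 to 78 bases before it ran into the same kind of inverted repeat. CTAGCAAC, GGCAAC and AGGNGGC were searched after the footprinted bases had been seen.

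CTCF-type words were also covered. A longer core of the CTCF consensus occurred 3 times in member peaks, in Hsd3b7, Npff and Trim69, and all 3 lay in footprints of both libraries, against 34 of 51 in CpG-rich peaks. It was in the window of 1 member (0.613%), against 0.0234% of closed, 0.582% of CpG-rich open and 0.414% of all eligible genes. The shorter AGGNGGC, which the longer core contains, was in 45 member windows (27.6%, 21.3 to 34.9%), against 13.1% of closed, 42.8% of CpG-rich open and 31.0% of all eligible genes. Of its 56 matches in member peaks, 11 lay in shared footprints (19.6%), where such footprints covered 3.19% of member peak bases. In CpG-rich peaks the share was 19.7%, over 10.4% of bases. AGGNGGC was chosen after the members' footprinted bases had been seen, so its share above their coverage is no support. Of the words chosen earlier, some were also above 3.19% in member peaks and others were at 0%. The printed Hsd3b7, Samd9l and C1rl sequences hold it in capitals, beginning 91, 44 and 86 bases before the 5' end.

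TATA boxes were few. TATAAA beginning 40 to 20 bases before the 5' end was found in 6 members (3.68%, 1.70 to 7.80%), against 5.97% (5.29 to 6.72%) of closed CpG-poor, 0.920% (0.715 to 1.18%) of CpG-rich open and 2.83% of all eligible genes. They were Agt, Crybb1, a lens crystallin gene (1.34 in replicate 1 and 1.32 in replicate 2), Adamtsl2, an ADAMTS-like matrix protein gene (0.727 and 0.612), Ecm1, an extracellular matrix protein gene (0.642 and 0.580), Pate1 (0.630 and 0.477) and Defb50. None of the 17 TATAAA matches in member peaks, counted on either strand, lay in a shared footprint. Such footprints covered 3.19% of member peak bases, so 17 matches are too few to read this. A box outside the peaks could not be counted, and those of Crybb1, Adamtsl2 and Pate1 did not lie wholly in a peak. The peaks of Defb50 lay 363 and 342 bp from its 5' end.

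Of the 27 motifs searched other than the 3 added after footprinted bases were seen, 14 had a member share between those of closed CpG-poor and CpG-rich open genes, 5 lay below both and 8 above both. The GC box word GGGNGG, bound by SP factors, was in 68.1% of member windows (60.6 to 74.8%), against 41.2% of closed, 89.0% of CpG-rich open and 71.5% of all eligible genes. Words that hold a CpG were rare, as the rule on CpG favours, with the CRE core TGACG, bound by CREB-type factors, in 4.91%, against 6.27%, 35.1% and 21.3%. The E-box CAGCTG was in 25.2% (19.1 to 32.3%), against 15.6%, 13.2% and 15.7%, and CAGATG in 25.8%, against 23.6%, 9.81% and 16.1%. AGATAA, bound by GATA factors, was in 9.20% (5.66 to 14.6%), against 19.1%, 5.17% and 10.7%, and TAATTA, a homeobox word, in 6.75%, against 11.8%, 2.15% and 5.70%. The PU.1 word GAGGAAGT, of the myeloid factor, was in 1.84% (0.628 to 5.27%), against 5.57%, 2.30% and 3.39%, and the AP-1 word TGANTCA in 9.20%, against 12.5%, 3.51% and 7.27%. The CCAAT box was in 32.5%, against 40.9%, 39.1% and 38.5%. No member window held the words searched for NRF1, EGR and REST or the full palindrome of NFI (upper bound 2.30% each), against 1.05%, 0.677%, 0.0672% and 0.0280% of all eligible genes, all below that bound. A match is a run of letters, not a bound site, and none of these shares was tested.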

How the data were processed

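DNase-seq was measured in 2 libraries of 1 group. Per the labels and the deposited notes, peaks, footprints and false discovery rates were made from each library's own mm10 alignments; no source used here names the aligner, caller or footprint tool, which are thus not given. The deposited peak signal is a height of unstated scale, a whole multiple of 0.00606 in replicate 1 and 0.00795 in replicate 2 in 100% of peaks (tolerance 0.05 of a step), so total depth is unknown. The false discovery rates deposited per interval, which like p-values run from 0 to 1, are listed below 0.05, and the footprints carry the p-value threshold 0.01 in every row. Reads of a hybrid were placed on the reference assembly, and the effect was not tested.

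A member's signal is that of its highest peak within 500 bp. Footprints were counted in the peak parts within 500 bp, and a shared footprint overlaps one of the other library by at least 1 bp. A motif match lay in a footprint when at least 50% of its bases did. Motifs were matched on both strands, except TATAAA before the 5' end, which was matched on the gene's strand. Within peaks TATAAA was matched on both strands too. Wilson intervals cover counting error only. Functions were tested on simulated data. The members, 23 gene lists and 27 motifs were chosen with earlier results of these data known, and 3 motifs after footprinted bases were seen. Named were the 12 highest and 5 lowest members, 3 at each end of the library ratio, up to 4 per list, 3 on each side of the threshold, TATA members and the 4 with most footprints; any other named gene was chosen after its values were seen. A gene the rule takes and 1 list are not reported here. Alternatives are in the closing section. Python 3.11.15, numpy 2.4.6, pandas 2.3.3 and scipy 1.17.1 were used.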

Additional observations from a re-analysis of the deposited data

How the results depend on the processing

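No paired analysis was possible because both libraries belong to 1 group. Across 125 alternative values of the 8 main results, 88 stayed within the main value's interval, spread or 1.5 times its count, and 37 moved. The main values were 163 members, 3.57% of CpG-poor genes, a median signal of 0.731 ± 0.0230 (SD over 2 libraries) and a footprint in 81.0% ± 5.21 of members. A ratio below 0.15 gave 85 members and 2.67%, with 5 of 5 astrocyte (100%), 2 of 2 oligodendrocyte (100%) and 0 of 3 microglial genes (0%) open. A ratio below 0.25 gave 265 members, 4.71% and a signal of 0.806, and the ratio over 250 bp on either side gave 4.41% and 0.817. Peaks within 250 bp gave 2.69%. Peaks within 1000 bp gave 252 members, 5.52%, a signal of 0.814 and 5 of 5 oligodendrocyte genes (100%). Peaks over the 5' end gave 62 members, 1.36%, a signal of 0.841, footprints in 88.7% and TATAAA in 1.61%. The smaller lists gave 87 members, 1.91%, 0.964, footprints in 91.4% and 0 of 14 microglial genes (0%). Leaving out either library gave 208 to 247 members, 4.56 to 5.41%, signals of 0.596 to 0.609, footprints in 71.2 to 73.3% 80 to 100% of oligodendrocyte and 14.3 to 21.4% of microglial genes (3 of 14 without replicate 1 and 2 of 14 without replicate 2, against 1 of 14). Excluding starts of any annotated gene gave 4 of 4 oligodendrocyte genes (100%). Leaving out chemosensory receptors, chosen after seeing the data like 2 other alternatives, gave 4.87%. Footprints shared by at least 1 bp were in 54.0% of members, and by 50% of both footprints in 39.9%. Searching member peaks instead of the 300-base window moved 2 of 26 motifs, the GC box to 58.3% and TTGGC, the NFI core, to 55.8%. The library ratio stayed within its spread after division by the library median (0.17, against 0.12). Depth is unknown, and the lowest member peaks held 29 steps in replicate 1 and 21 in replicate 2.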
